A study of Mus musculus with 8 samples.

Results

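RNA-binding proteins that steer splicing were followed through the mouse liver's internal day: the SR proteins, the hnRNPs, the transformer-2 pair (Tra2a and Tra2b) and the cold-inducible pair (Cirbp and Rbm3). Members were the genes whose symbol starts with Srsf or Hnrnp, plus these 4, that reached 20 recovered reads in 2 or more libraries. Of 36 genes that matched by name, 34 passed: 20 hnRNP genes, 10 SR protein genes, 2 Tra2 genes and 2 cold-inducible genes, of 10930 genes that passed the same read filter and 24353 that carried a name. Srsf12 had 2 reads in all and Hnrnpa1l2-ps2 had 6, and neither was a member. The livers came from wild-type C57/BL6 mice that had spent a week in 12 h of light and 12 h of dark and then a day in constant darkness before collection began. Circadian time (CT) counts hours of the animals' internal day. Polyadenylated RNA of 3 animals was pooled into 1 library every 6 h from CT23 to CT65, 8 libraries in all. Late subjective night was sampled at CT23 and CT47, mid subjective day at CT29 and CT53, late subjective day at CT35 and CT59, and mid subjective night at CT41 and CT65. The labels give neither sex nor age, and no time had a second pool.

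SR proteins bind exons through RNA recognition motifs, carry tails rich in arginine and serine, and mostly favour the use of nearby splice sites. The hnRNPs coat nascent transcripts and often act against inclusion of the exons they bind. Many genes of both families hold exons or retained introns that send their own mRNA to decay or keep it in the nucleus, so that a protein can limit its own supply. Cirbp and Rbm3 proteins accumulate when cells are mildly cooled, and Cirbp is known in cultured cells to affect poly(A) site choice and clock gene amplitude.

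No member was called for a 24-h rhythm. Levels are RPKM, reads per length of transcript and per depth of the library. Each gene was fitted with a 24-h cosine curve in limma on log2(RPKM + 0.5), and an adjusted p under 0.05 over all genes tested was called. Of the 34 members 0 were called, beside 1.84% of all genes tested (201 of 10930). At an unadjusted p under 0.05 the members numbered 6 of 34 (17.6%), beside 15.0% of all genes tested (1641). edgeR and DESeq2 on the recovered reads also called 0 members. The median fitted peak to trough was 0.41 on the log2 scale over the members and 0.40 over all genes tested. With 1 pool per time, these p-values weigh the scatter of the pools about the curve, where differences of pool, lane and day cannot be told apart. They do not weigh the scatter among animals. In whole liver, fewer cells of a type and less RNA per cell cannot be told apart.

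The CT35 library stood apart in depth and make-up. Reads behind 1 RPKM numbered 22.9 M (mega) there and 11.7 to 13.9 M in the other 7 libraries. Its junction reads per 100 reads were 64.5, against 41.4 to 49.5, and its intron reads per 100 exon reads were 7.45, against 12.4 to 14.4. Members held 19998 reads in CT35 and 8795 to 10801 in each of the others. Summed levels of 10 hepatocyte markers were 76053 RPKM in CT35 and 48624 to 65460 RPKM in the others, with no marker at 0. Summed levels of 29 markers of other liver and blood cells lay between 222 and 301 RPKM, with at most 1 marker at 0 in a library. The part of these differences in the results below was not tested.

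The cold-inducible pair had its highest levels late in the subjective day on both days. Cirbp, an RNA-binding protein with a glycine-rich tail, lies at chr10:79628730-79633061 in mm9 on the plus strand. Its level was 4.18, 7.86, 9.92, 5.26, 6.60, 4.94, 9.85 and 3.75 RPKM from CT23 to CT65 in 6-h steps. The 2 late-day libraries, CT35 and CT59, held 9.92 and 9.85 RPKM and stood above all 6 others, whose highest was 7.86 RPKM at CT29. The fitted peak to trough was 0.96 ± 0.33 (log2, SE) with a peak at 9.15 h of the internal day, and it was not called (adjusted p = 0.308 in limma). Only 318 reads lay behind these values, with 22 in the poorest library, because the transcript that the rule picks is 423 bases long. The Cirbp transcript with the most reads, 1321 bases and 634 reads, gave 2.97, 4.85, 6.75, 2.78, 3.76, 3.83, 5.47 and 2.56 RPKM over the same times. In that transcript the 2 late-day libraries were again highest, with a fitted difference of 0.98 (log2, adjusted p = 0.105 in limma).

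Rbm3, the close relative of Cirbp, lies on the minus strand at chrX:7717910-7722805 in mm9. It had 4.92, 4.72, 11.3, 4.24, 5.04, 5.81, 8.16 and 5.80 RPKM from CT23 to CT65. CT35 and CT59 again stood above the other 6 libraries, CT35 further than CT59. The fitted peak to trough was 0.89 ± 0.30 (log2, SE) with a peak at 10.70 h (adjusted p = 0.290 in limma). Without the CT35 library it was 0.55 (log2, adjusted p = 0.587 in limma). The most-read Rbm3 transcript kept CT35 and CT59 highest, at 4.43 and 3.23 RPKM, but its fitted difference was 0.49 (log2, adjusted p = 0.524 in limma). The upper deposited value averaged 10.1 RPKM and the lower value 6.25 RPKM, so the Rbm3 level depends on which is used. With the upper value the fitted difference was 1.06 (log2, adjusted p = 0.135 in limma), and it was not called either.

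**Figure D1:**
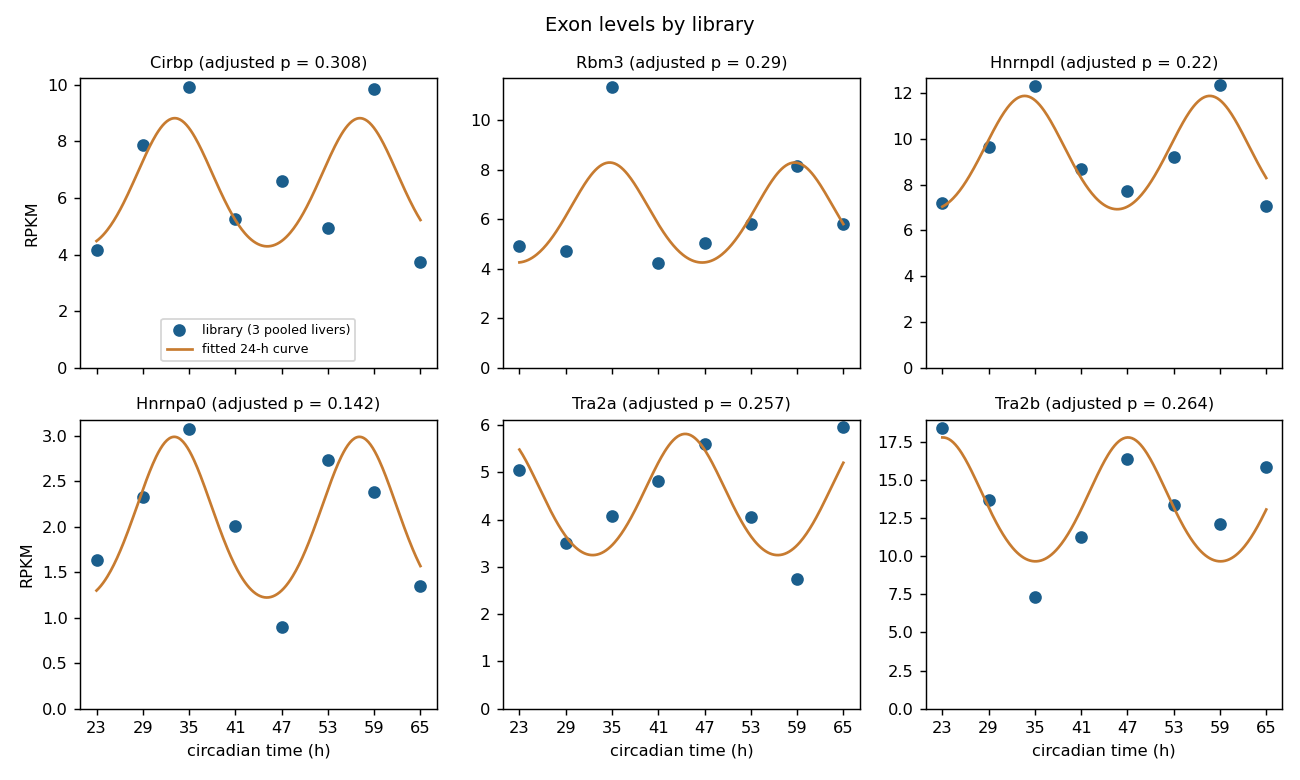
RPKM (y axis, linear from 0) of Cirbp, Rbm3, Hnrnpdl, Hnrnpa0, Tra2a and Tra2b in the 8 libraries against circadian time (x axis, h). Points are single libraries of 3 pooled animals and lines are fitted 24-h curves. Cirbp, Rbm3 and Hnrnpdl are highest at CT35 and CT59, while Tra2b is lowest at CT35 on the first day and at CT59 on the second.

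The RefSeq promoter table (GRCm38.p6, 250 bases before to 50 after a start site) held 44 promoters of 31 of the 34 members. It is shown for Cirbp, whose late-day libraries were its highest and for which such an element is described in the response to mild cold, and for Tra2b, whose levels ran the other way. The cold-response letters TCCCCGCC, on either strand, were in 4 of the 44 member promoters (9.09%, those of Cirbp, Hnrnpa0, Hnrnpf and Srsf7) and in 5.38% of all 32851 promoters. The heat-shock letters GAANNTTC were in 6 of the 44 (13.6%) and in 7.86% of all. The E-box CACGTG was in 5 of 44 (11.4%) and in 7.15% of all, and the ROR letters AGGTCA were in 3 of 44 (6.82%) and in 16.3% of all. The cyclic AMP letters TGACGTCA were in 1 of 44 (2.27%), that of Tra2a, and in 1.79% of all. The D-box TTATGTAA was in 0 of the 44 and in 0.938% of all. These are matches of letters in a window and show no binding. Cirbp has 2 promoters in the table, and the downstream one (chr10:80167921-80168220, plus strand) held none of these letters. Rbm3 and Hnrnpdl, whose late-day libraries were also their highest, were looked up too. The table had no promoter for Rbm3, and that of Hnrnpdl held none of these letters. Capitals mark TCCCCGCC at position -247 from the start site in the upstream Cirbp promoter (chr10:80167589-80167888, plus strand) and GAANNTTC at -207 in the Tra2b sequence (chr16:22265956-22266255, minus strand).
Cirbp promoter: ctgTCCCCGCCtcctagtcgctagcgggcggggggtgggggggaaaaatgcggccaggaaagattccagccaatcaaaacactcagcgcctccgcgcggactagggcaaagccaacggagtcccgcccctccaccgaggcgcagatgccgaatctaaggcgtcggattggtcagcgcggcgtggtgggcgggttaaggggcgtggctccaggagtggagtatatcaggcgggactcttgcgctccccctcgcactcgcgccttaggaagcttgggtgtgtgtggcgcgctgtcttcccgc
Tra2b promoter: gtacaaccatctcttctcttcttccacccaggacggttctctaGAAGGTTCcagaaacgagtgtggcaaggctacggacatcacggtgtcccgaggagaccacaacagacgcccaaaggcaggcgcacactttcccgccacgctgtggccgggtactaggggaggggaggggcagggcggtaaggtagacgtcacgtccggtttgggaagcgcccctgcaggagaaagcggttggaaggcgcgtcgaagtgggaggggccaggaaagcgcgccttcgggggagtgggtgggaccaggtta

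The Tra2 pair, which binds purine-rich exon enhancers and favours exon inclusion, had its highest levels at night. Tra2b lies on the minus strand at chr16:22246972-22252722 in mm9. It had 18.4, 13.7, 7.33, 11.3, 16.4, 13.4, 12.1 and 15.9 RPKM from CT23 to CT65. The late-night libraries CT23 and CT47 stood above the other 6, and the lowest library of each day was the late-day one, CT35 and CT59. The fitted peak to trough was 0.85 ± 0.27 (log2, SE) with a peak at 23.07 h (adjusted p = 0.264 in limma). Without the CT35 library it was 0.55 (log2, adjusted p = 0.533 in limma). Scaled to equal composition by TMM (trimmed mean of M values), CT23 and CT47 no longer stood above all others. In the most-read transcript CT23 and CT47 were still highest, at 5.30 and 5.20 RPKM, but the fitted difference was 0.53 (log2, adjusted p = 0.360 in limma).

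Tra2a lies on the minus strand at chr6:49193920-49214051 in mm9 and has 1 named transcript. Its level was 5.04, 3.50, 4.07, 4.82, 5.60, 4.05, 2.74 and 5.95 RPKM from CT23 to CT65. The night libraries, CT23, CT41, CT47 and CT65, lay between 4.82 and 5.95 RPKM, and the day libraries between 2.74 and 4.07 RPKM, with no overlap. How common such a split is over all genes tested is not given here. The fitted peak to trough was 0.75 ± 0.24 (log2, SE), with a peak at 20.50 h (adjusted p = 0.257 in limma).

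Among SR proteins, 0 of 10 passed an unadjusted p of 0.05 in limma, beside 15.0% of all genes tested. Srsf2, which also has a role in transcription elongation, was the most abundant by the rule's transcript. It had 34.7, 45.9, 39.7, 40.6, 33.0, 32.6, 40.3 and 36.8 RPKM from CT23 to CT65. Late-night libraries averaged 33.8 RPKM and late-day ones 40.0 RPKM. No phase was the highest or the lowest of its day on both days (0.24 ± 0.24, log2 peak to trough, SE, adjusted p = 0.839 in limma). Srsf5, first described as an insulin-induced gene of regenerating rat liver, had 24, 28.7, 42.0, 23.8, 36.9, 42.8, 41.2 and 20.2 RPKM. Its 2 mid-night libraries, CT41 and CT65, were the lowest of all 8 (0.82 ± 0.31, adjusted p = 0.368 in limma). That transcript is 547 bases long, and the most-read one, of 2919 bases, gave a fitted difference of 0.52 (log2, adjusted p = 0.485 in limma). Srsf11 had 26.2, 21.5, 36.3, 21.5, 27.7, 24.6, 28.6 and 28.7 RPKM, and Srsf6 had 17.3, 17.6, 25.1, 13.9, 21.9, 21.1, 18.6 and 14.2 RPKM. For Srsf11 the CT35 library alone stood high, and for Srsf6 CT41 and CT65 were lowest (adjusted p = 0.833 for Srsf11 and 0.627 for Srsf6 in limma).

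Srsf4 was singled out after its values were seen. It is the largest of the classical SR proteins and lies at chr4:131429554-131457640 in mm9 on the plus strand. It had 10.5, 12.1, 22.1, 11.5, 13.3, 15.0, 16.9 and 11.4 RPKM from CT23 to CT65. CT35 and CT59 stood above the other 6 libraries, as for Cirbp and Rbm3. The fitted peak to trough was 0.72 ± 0.26 (log2, SE) with a peak at 9.81 h (adjusted p = 0.344 in limma). The other SR members, Srsf1, Srsf3, Srsf7, Srsf9 and Srsf10, averaged between 4.14 RPKM (Srsf7) and 15.9 RPKM (Srsf1), with fitted differences of 0.07 to 0.57 (log2). The upper end is Srsf10, whose most-read transcript gave 0.08 (log2, adjusted p = 0.962 in limma).

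Among the 20 hnRNP genes, 2 passed an unadjusted p of 0.05 in limma, beside 15.0% of all genes tested. Both were singled out after their values were seen. Hnrnpa0, an intronless member of the A/B family, had the largest fitted difference of all 34, 1.02 ± 0.26 (log2, SE). It had 1.64, 2.33, 3.07, 2.01, 0.898, 2.73, 2.38 and 1.35 RPKM from CT23 to CT65. The 4 day libraries lay between 2.33 and 3.07 RPKM and the 4 night libraries between 0.898 and 2.01 RPKM, with no overlap (limma, peak at 9.08 h, adjusted p = 0.142). Its mean, 2.05 RPKM, was the lowest of all members, with 31 reads in the poorest library. No share of all genes tested with such a split is given here. Hnrnpdl, a relative of Hnrnpd, had 7.17, 9.63, 12.3, 8.69, 7.70, 9.22, 12.4 and 7.07 RPKM, so that CT35 and CT59 again stood above the other 6. Its fitted peak to trough was 0.74 ± 0.22 (log2, SE) with a peak at 9.68 h (limma, adjusted p = 0.220). In the most-read Hnrnpdl transcript the adjusted p was 0.0533, the smallest of any member in that setting.

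The 4 most abundant hnRNP genes by the rule's transcript showed smaller or less regular differences. Hnrnph1, which binds runs of G, had 31.4, 38.2, 67.1, 37.1, 43.9, 44.5, 40.6 and 33.5 RPKM from CT23 to CT65, and CT35 stood far above the rest. That transcript is only 159 bases long, and the most-read one, of 4577 bases, had 8.11 RPKM at CT35 and 6.99 to 8.99 RPKM in the others. Hnrnpab, a factor known to bind both DNA and RNA, had 29.9, 37.2, 59.5, 34.3, 38.6, 43.9, 36.0 and 32.6 RPKM, again with CT35 highest. Hnrnpa2b1, a reader of exon silencers and of sorting signals in RNA, had 32.9, 26.3, 47.6, 42.2, 31.8, 42.1, 36.8 and 37.3 RPKM. For these 3 the adjusted p lay between 0.572 and 0.632 in limma.

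Hnrnpk and Hnrnpl were singled out after their values were seen, for low levels in the middle of both subjective nights. Hnrnpk, which binds runs of C, had 30.2, 35.3, 35.5, 23.5, 34.9, 37.3, 35.4 and 23.7 RPKM from CT23 to CT65, on 7050 reads. Hnrnpl had 20.6, 24.9, 18.96, 15.8, 22.9, 20.9, 23.7 and 15.4 RPKM on 4784 reads. In both genes CT41 and CT65 were the lowest of the 8 libraries. The other 6 lay between 30.2 and 37.3 RPKM for Hnrnpk and between 18.96 and 24.9 RPKM for Hnrnpl. Fitted differences were 0.62 ± 0.23 for Hnrnpk and 0.54 ± 0.24 for Hnrnpl (log2, SE, adjusted p = 0.352 and 0.473 in limma). The remaining hnRNP genes averaged between 2.95 RPKM (Hnrnpa1) and 28.8 RPKM (Hnrnpu), with fitted differences of 0.12 to 0.54 (log2).

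Hnrnpul1, a relative of the nuclear scaffold protein Hnrnpu, alternated every 6 h. It had 38.0, 24.2, 29.5 and 39.3 RPKM at CT23, CT35, CT47 and CT59, against 45.8, 48.0, 52.95 and 49.6 RPKM at CT29, CT41, CT53 and CT65. The groups did not overlap, and the share of all genes tested with such a split is not given here. Its 12-h term, the mean difference between these sets of times, was -0.60 ± 0.20 (log2, SE), and it was not called (adjusted p = 0.586 in limma). The same test called 0 of 34 members, beside 0% of all genes tested, and 3 of 34 had an unadjusted p under 0.05, beside 8.03% of all genes tested. The other 2 were Srsf9 (0.52 ± 0.19) and Rbm3 (0.41 ± 0.17). edgeR called 0 genes and DESeq2 called 22, none of them a member.

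**Figure D2:**
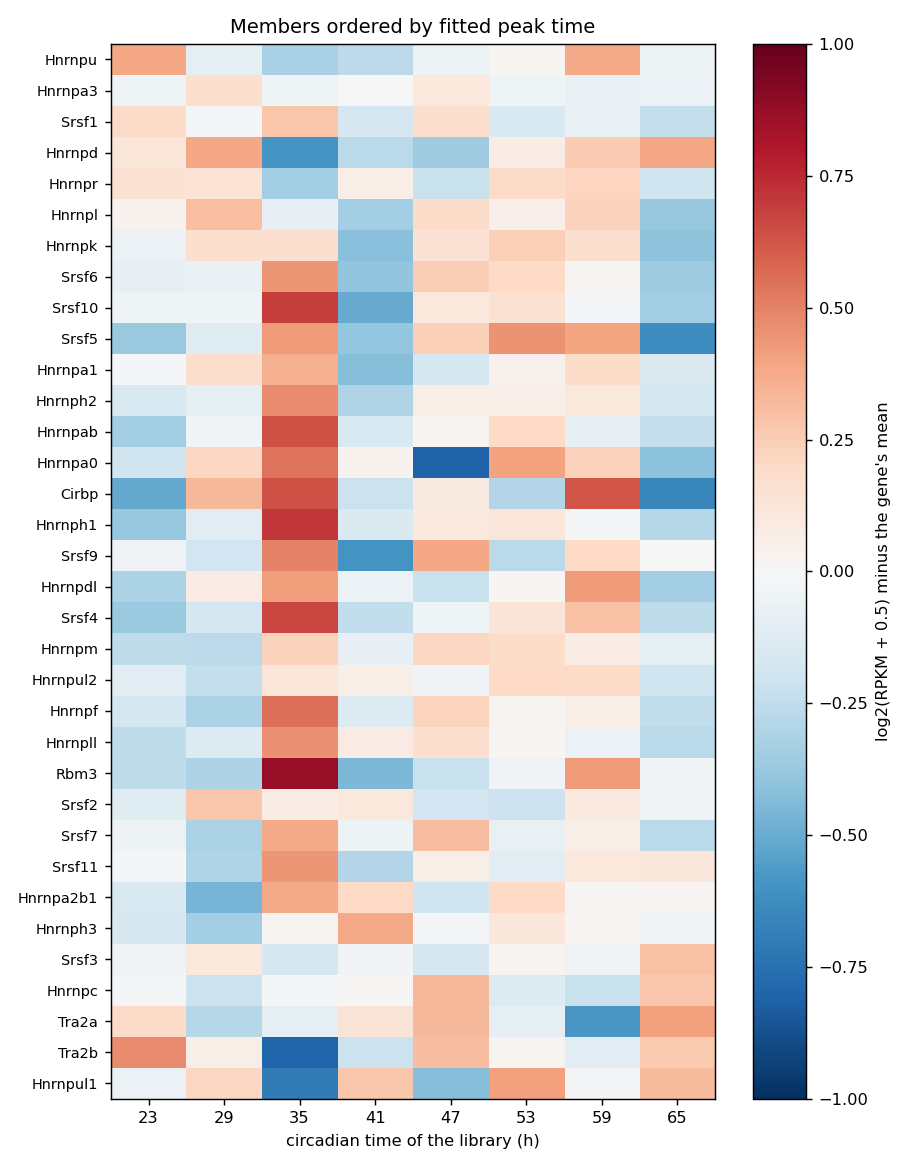
Each row is 1 of the 34 members, ordered by fitted peak time from the earliest at the top, and each column 1 library by circadian time (h). Colour is log2(RPKM + 0.5) minus the gene's mean over the 8 libraries, red above and blue below. The CT35 column holds the most dark red cells, and Tra2b and Hnrnpul1 are dark blue there.

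With all 8 libraries, fitted peaks of the members lay late in the subjective day more often than elsewhere. The nearest sampled phase was late day (CT35 and CT59) for 17 of 34 (50%), mid day for 9, late night for 5 and mid night for 3. Over all genes tested, 30% were nearest to late day. These counts include fits of any size and have no test. They were not remade without the CT35 library. Without CT35, the fitted peak left late day for Hnrnph1 (9.37 to 6.86 h) and Hnrnpab (8.90 to 6.49 h). The same held for Srsf11 (12.54 to 16.97 h) and Hnrnpa2b1 (13.27 to 14.29 h). Hnrnpul1 moved into late day (23.39 to 10.89 h), and Cirbp, Rbm3 and Srsf2 stayed there (8.77, 10.50 and 10.98 h). The median of late day minus late night was 0.20 (log2) over the members and 0.07 over all genes tested.

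**Figure D3:**
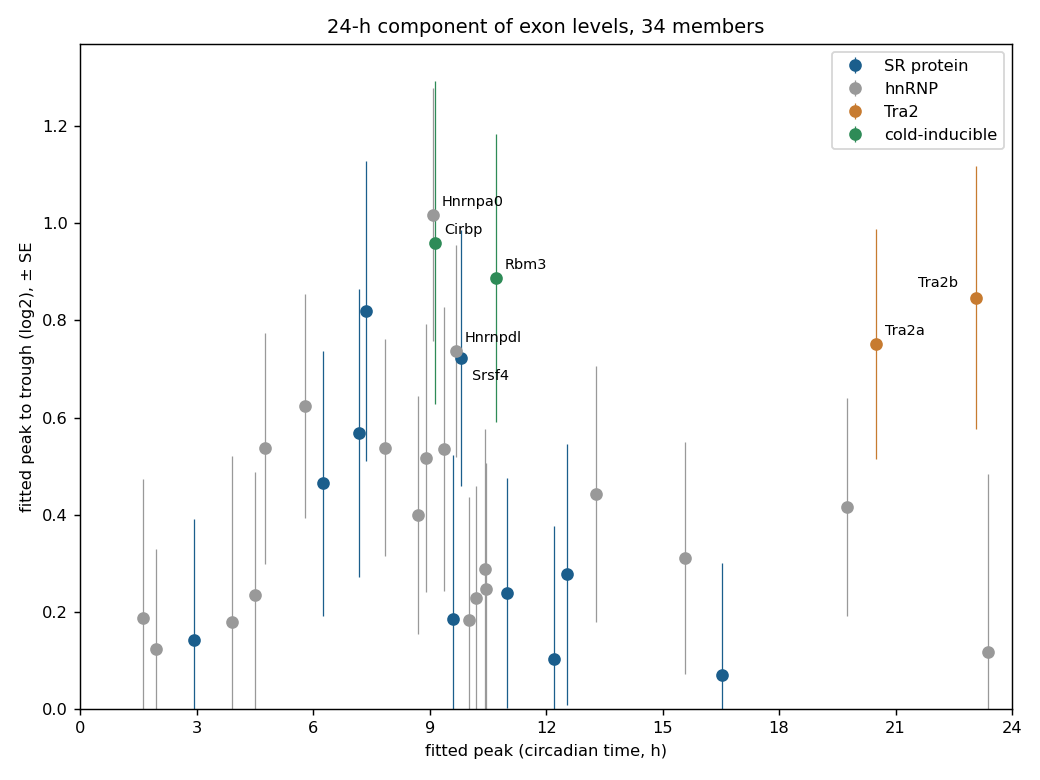
Fitted peak time (x axis, h of the internal day) against fitted peak to trough (y axis, log2, bars ± SE) of the 34 members, coloured by family. The cold-inducible pair, Hnrnpa0, Hnrnpdl and Srsf4 lie between 9.08 and 10.70 h, and the Tra2 pair at 20.50 and 23.07 h.

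A count of groups that did not overlap was made after the values had been seen. Both late-day libraries stood above the other 6 in 6 of 34 members (17.6%), namely Cirbp, Rbm3, Hnrnpa1, Hnrnpdl, Hnrnph2 and Srsf4, beside 10.2% of all genes tested. After TMM scaling 5 of these 6 were left (14.7%), without Hnrnpa1, beside 7.30% of all genes tested. Both mid-night libraries stood below the other 6 in 7 members (20.6%), namely Hnrnph2, Hnrnpk, Hnrnpl, Srsf1, Srsf5, Srsf6 and Srsf10, beside 12.4% of all genes tested. After TMM scaling 5 of these 7 were left (14.7%), without Hnrnph2 and Srsf1, beside 6.32% of all genes tested. Both late-night libraries stood above the other 6 in 1 member, Tra2b, beside 3.47% of all genes tested. Every other pairing of phase and direction held 0 members before TMM scaling. For those pairings the share of all genes tested ran from 2.18% (late night lowest) to 6.15% (mid day highest). The TMM multipliers reached from -0.11 (CT35) to 0.16 (CT65) on the log2 scale.

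The late-day libraries of the first and second day differed. CT35 was the highest library of its day in 22 of 34 members (64.7%) and in 42.0% of all genes tested. CT59 was highest of its day in 10 of 34 (29.4%) and in 27.1% of all genes tested. CT35 exceeded CT59 in 23 of 34 members and in 5757 of 10929 genes with both values, and these counts have no test. The median of CT35 minus CT59 was 0.19 (log2) over the members and 0.03 over those genes, and in the most-read transcripts it was 0.12 over the members. In 7 members (20.6%) the same phase was highest on both days, beside 31.7% of all genes tested. In 10 the same phase was lowest, beside 3487 of 10930 genes tested. The ratio of the highest to the lowest library had a median of 1.80 and reached from 1.2 for Hnrnpa3, an A/B family member, to 3.42 for Hnrnpa0.

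The upper value exceeded the lower by over 1.2 times in 9 members, namely Hnrnpa1, Hnrnpa3, Hnrnpf, Hnrnph2, Hnrnpk, Rbm3, Srsf5, Srsf10 and Tra2b. Hnrnpa1 had the largest gap, with means of 8.45 RPKM for the upper value and 2.95 RPKM for the lower. For these genes the level depends on which value is used, and no source used here says what separates the upper from the lower. Whether reads shared with near-identical copies make up the gap was not tested. For 22 members the upper value exceeded the lower by at most 5%.

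Unspliced RNA was read from introns free of annotated exons. In 18 members the free introns had at least 20 reads in at least 2 libraries. Of the 18, 0 were called, beside 2.04% of all genes tested (119 of 5837). At an unadjusted p under 0.05 in limma there was 1 of the 18, beside 636 of all 5837 genes tested. This member was Srsf4. Its intron level was 0.360, 0.483, 0.755, 0.331, 0.363, 0.428, 0.618 and 0.314 RPKM from CT23 to CT65, from 24 to 107 reads. CT35 and CT59 were highest on their days in the introns too, with a fitted peak at 9.32 h (0.51 ± 0.18, log2, SE, adjusted p = 0.362 in limma). Without the CT35 library 0 of the 18 had an unadjusted p under 0.05. Tra2a had 0.231, 0.226, 0.2003, 0.0612, 0.344, 0.253, 0.207 and 0.320 RPKM in its introns and Tra2b had 0.272, 0.229, 0.189, 0.236, 0.397, 0.142, 0.351 and 0.227 RPKM. The late-night library CT47 was highest for both, and no call was made (adjusted p = 0.914 for Tra2a and 0.982 for Tra2b in limma). These introns had 5 to 32 reads in a library for Tra2a and 9 to 26 for Tra2b. All their levels lay below the 0.5 added before the log, so this fit could show little of any difference. The Cirbp transcript of the rule had no intron free of annotated exons, and the free intron of Rbm3 was too poor in reads for this fit. The most-read Cirbp transcript had 2 free introns of 1975 bases in all, with 19 to 33 reads in each library. Their level was 0.778, 1.14, 0.730, 0.866, 0.943, 0.814, 0.947 and 0.693 RPKM from CT23 to CT65. CT65 and CT35 were the lowest there, and the fitted difference was 0.20 ± 0.23 (log2, SE, adjusted p = 0.999 in limma).

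Single introns were set against the exons of their transcript as a ratio of levels. This ratio is no share of the RNA that keeps the intron, since reads of an exon that the models lack count in it too, and it can pass 100%. The 20 introns measured came from 11 members, with a median of 11.3% of the exon level. None was called in limma (0 of 20, beside 0.0113% of all introns tested, 1 of 8837). At an unadjusted p under 0.05 in limma they numbered 0 of 20, beside 839 of all 8837 introns tested. Introns are numbered from the 5′ end of the transcript. Hnrnpd encodes AUF1, a binder of AU-rich mRNA ends, and its intron 6 had 159, 98.6, 119, 117, 149, 191, 125 and 167% of the exon level from CT23 to CT65. Its level was at or above that of the exons in 7 of the 8 libraries, with 46 to 131 reads in each. Late night lay above the mean of 141% on both days, at 159 and 149%, but no phase was the highest of its day on both (adjusted p = 0.854 in limma).

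Hnrnpul2, another relative of Hnrnpu, had 53.4, 85.2, 43.1, 84.3, 92.3, 47.7, 76.3 and 89.4% in intron 12, with 15 to 27 reads in each library. Mid-night libraries CT41 and CT65 were both high, and mid-day libraries CT29 and CT53 were far apart (adjusted p = 0.757 in limma). Hnrnpa2b1 intron 5, 80 bases long, spread from 7.89% at CT29 to 64.2% at CT23, on 2 to 26 reads. Hnrnpl, which binds CA repeats, had 33.7, 23.4, 29.7, 29.6, 28.8, 32.7, 29.1 and 38.0% in intron 6 on 170 to 400 reads, the steadiest of the 4 (adjusted p = 0.836 in limma).

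**Figure D4:**
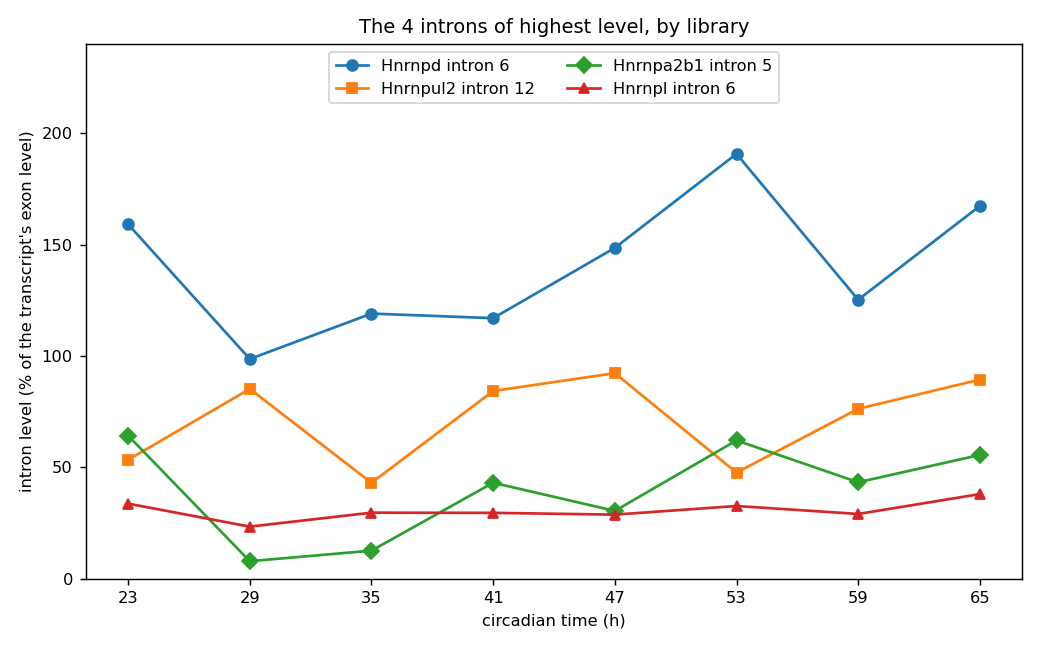
Level of 4 introns as a percentage of the exon level of their transcript (y axis, linear from 0) against circadian time (x axis, h), 1 point a library. Hnrnpd intron 6 reaches from 98.6 to 191%, Hnrnpl intron 6 from 23.4 to 38.0%, and Hnrnpa2b1 intron 5 is lowest, at 7.89%, at CT29.

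The introns of Hnrnpd and Hnrnpl with these high levels each hold an exon that the deposited transcript models lack and the junction reads show. It was looked for after the intron values had been seen. In Hnrnpl a 70-base exon at chr7:29602354-29602423 in mm9 was joined to its upstream neighbour by 42 of 587 reads at that donor (7.16%). It was joined downstream by 50 of 594 reads at that acceptor (8.42%). GENCODE M21 lists an exon with the same length and the same flanking introns (GRCm38 chr7:28817335-28817404, plus strand) in a transcript classed as nonsense-mediated decay. It is shown because it carries a stop codon. The 20 bases before it are in lower case, and the capitals are its first 59 bases, which end with the annotated stop.
Hnrnpl intron 6 exon: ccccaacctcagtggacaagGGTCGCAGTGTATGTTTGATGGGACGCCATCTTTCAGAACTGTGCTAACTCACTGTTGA

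In Hnrnpd a 107-base exon at chr5:100391117-100391223 in mm9 was joined by 45 of 664 reads (6.78%) at its upstream donor and 22 of 649 reads (3.39%) at its downstream acceptor. GENCODE M21 also lists it in transcripts of the nonsense-mediated decay class, outside the coding sequence. None of these 4 junctions was called in limma, with adjusted p-values between 0.567 and 0.975.

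Competing junctions share a donor or an acceptor with a more used one. Those with 20 or more reads in all were counted in 20 members. They numbered 51, where a junction that was the less used one at both of its ends was counted at each end. Of these, 21 in 8 members had at least 20 reads at the shared site in every library and at least 2% of that site. In limma 0 of the 21 were called, beside 0% of all junctions tested (0 of 1641). At an unadjusted p under 0.05 in limma they numbered 0 of 21, beside 142 of all 1641 junctions tested. The other 30 were below one of these limits. Intervals below are 95% Wilson intervals and cover counting error only.

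Hnrnpab mRNA either held or skipped a 141-base exon at chr11:51415252-51415392 in mm9, a multiple of 3 inside the coding sequence. Inclusion reads at the downstream acceptor made up 31.6, 31.3, 43.0, 50, 36.7, 43.0, 26.7 and 25.2% from CT23 to CT65, of 74 to 498 reads. At the upstream donor they made up 23.5, 22.0, 40.4, 51.9, 32.0, 34.8, 34.5 and 30.5%. Both ends were highest at CT41. The other mid-night library, CT65, had 25.2% at the acceptor (interval 18.3 to 33.7%), against 50% at CT41 (38.9 to 61.1%), so the 2 days of 1 phase differed by more than counting error. Neither end was called (adjusted p = 0.999 and 0.615 in limma).

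Hnrnpa2b1 held or skipped an exon that encodes part of the glycine-rich tail. Skipping reads made up 45.1, 46.3, 39.5, 24.9, 38.8, 24.4, 34.1 and 26.2% at the donor from CT23 to CT65. At the acceptor they made up 36.8, 25.7, 30.6, 30.8, 20.2, 18.4, 26.4 and 25.2%. CT53 was lowest at both ends, at 24.4% (17.5 to 32.8%) and 18.4% (13.1 to 25.1%). Its partner CT29 had the highest donor share, 46.3% (32.1 to 61.2%), on 41 reads. The adjusted p was 0.789 at the donor and 0.880 at the acceptor in limma.

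Hnrnph1 skipped a 139-base exon at chr11:50194961-50195099 in mm9, whose length is no multiple of 3. Skipping reads made up 26.7, 21.2, 28.3, 15.0, 27.3, 53.8, 40.4 and 23.2% at the donor from CT23 to CT65. At the acceptor they made up 15.2, 15.5, 16.5, 10.6, 16.8, 26.9, 23.5 and 10.6%. CT53 stood highest at both ends, with 53.8% (41.9 to 65.4%) at the donor and 26.9% (20.04 to 35.1%) at the acceptor. CT41 was lowest at the donor and CT65 at the acceptor. The other mid-day library, CT29, had 21.2% (13.7 to 31.4%) at the donor, apart from CT53, but 15.5% (9.88 to 23.4%) at the acceptor, where the intervals overlap. The adjusted p was 0.661 at the donor and 0.615 at the acceptor in limma.

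Hnrnpc, whose tetramers measure the length of nascent RNA, joined 1 donor to 3 acceptors in its coding sequence, the main one and those 21 and 24 bases further on. The junction that leaves out 24 bases made up 11.6% of the reads over all libraries (54 of 465), from 3.70% at CT23 to 25% at CT29 (adjusted p = 0.804 in limma). The junction that leaves out 21 bases made up 37.0, 29.2, 32.7, 22.95, 29.2, 31.0, 38.2 and 20% from CT23 to CT65, of 29 to 104 reads. The mid-night libraries CT41 and CT65 were the 2 lowest, with intervals that overlap those of the others (20%, 12.3 to 30.8%, at CT65 and 38.2%, 23.9 to 55.0%, at CT59). This junction was not called (adjusted p = 0.806 in limma).

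**Figure D5:**
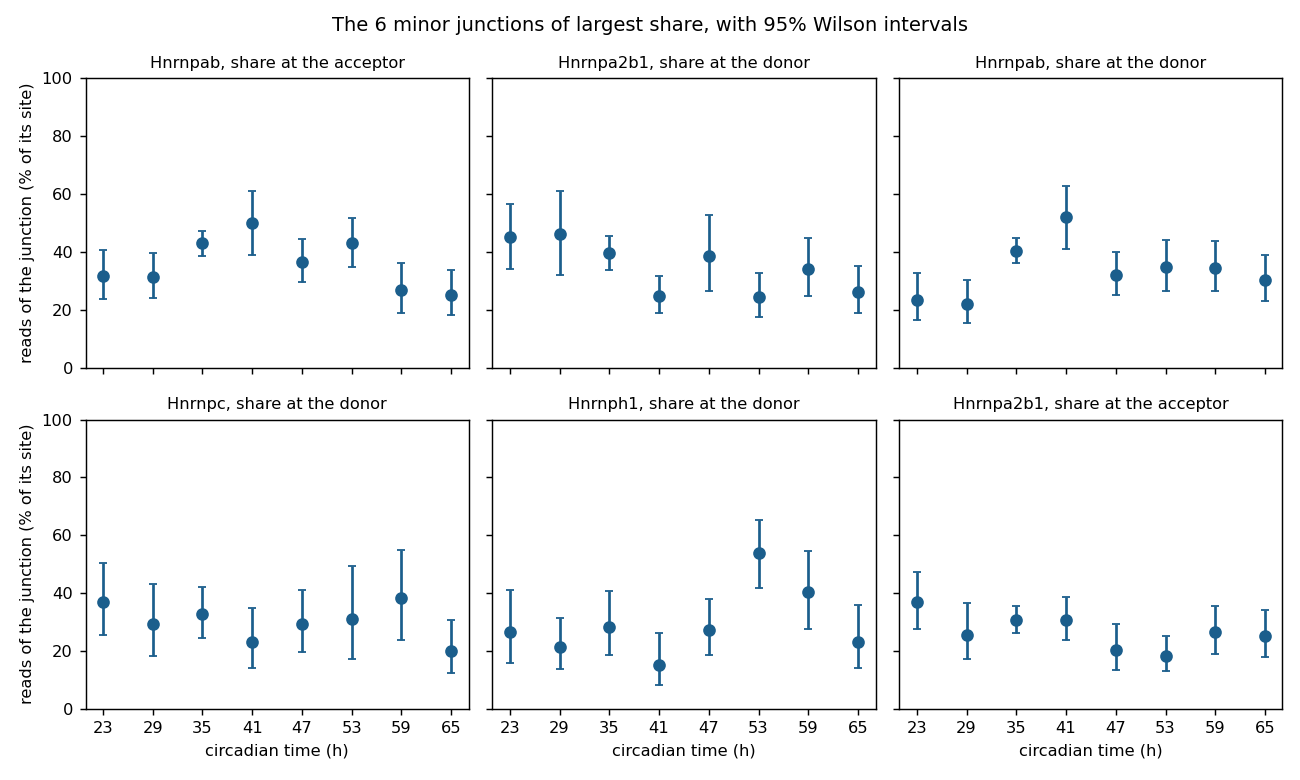
Reads of a minor junction as a percentage of the reads at a shared splice site (y axis, 0 to 100%), against circadian time (x axis, h). The panels are the 6 shares of largest mean, and the Hnrnpa2b1 junction appears at its donor and again at its acceptor. Points are libraries and bars 95% Wilson intervals. Hnrnpab is highest at CT41 in both panels, and Hnrnph1 at CT53.

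A further pair was singled out after its values were seen, because the alternatives have well-known protein forms or minimal size. At another Hnrnpc intron the shorter junction keeps 39 bases, the stretch by which the C2 protein differs from C1. It made up 24.8% of the reads over all libraries (118 of 476), from 16.7% at CT23 to 37.9% at CT59 (adjusted p = 0.811 in limma). In Srsf5, acceptors 3 bases apart in the coding sequence were used side by side. The one that keeps the 3 bases had 23.6% of the reads (170 of 721), from 16.4% at CT65 to 32.7% at CT41 (adjusted p = 0.934 in limma).

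The sequences of the alternative stretches of Hnrnpab, Hnrnph1, Hnrnpc and Srsf5 show what each junction adds to or leaves out of the mRNA. They are from GENCODE M21 transcripts in GRCm38, matched to the mm9 junctions by the lengths of the exon and of its introns. Capitals mark the stretch that is included or left out, and up to 20 bases of the coding sequence on each side are in lower case. GRCm38 positions are chr11:51601750-51601890 for Hnrnpab, chr14:52075416-52075436 for the 21 bases of Hnrnpc and chr14:52081789-52081827 for the 39 bases, all on the minus strand. On the plus strand they are chr11:50381459-50381597 for Hnrnph1 and chr12:80949717-80949719 for Srsf5.
Hnrnpab exon: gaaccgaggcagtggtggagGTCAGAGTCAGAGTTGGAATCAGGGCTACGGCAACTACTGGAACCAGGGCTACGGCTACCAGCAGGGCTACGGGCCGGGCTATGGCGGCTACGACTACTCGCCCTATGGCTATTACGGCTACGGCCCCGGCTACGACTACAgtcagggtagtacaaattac
Hnrnph1 exon: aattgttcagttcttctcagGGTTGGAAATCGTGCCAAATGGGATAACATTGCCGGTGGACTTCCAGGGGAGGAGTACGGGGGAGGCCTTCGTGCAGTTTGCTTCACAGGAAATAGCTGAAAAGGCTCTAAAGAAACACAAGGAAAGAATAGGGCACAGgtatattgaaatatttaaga
Hnrnpc 21 bases: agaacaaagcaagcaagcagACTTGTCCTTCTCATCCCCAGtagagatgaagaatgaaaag
Hnrnpc 39 bases: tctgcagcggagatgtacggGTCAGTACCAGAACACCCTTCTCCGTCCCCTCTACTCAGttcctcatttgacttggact
Srsf5 3 bases: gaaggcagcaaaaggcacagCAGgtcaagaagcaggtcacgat

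Other lists of RNA splicing genes held 0 calls, beside 1.84% of all genes tested. These lists of 11 to 40 genes are too short for 0 calls to stand apart from that share. In limma none was called among 40 core spliceosome proteins, 30 SR-related proteins and 3′ splice site factors, and 11 kinases, phosphatases and importers of SR proteins. None was called among 16 nonsense-mediated decay factors and 40 other RNA-binding splicing regulators. At an unadjusted p under 0.05 they numbered 1, 2, 1, 1 and 7, beside 15.0% of all genes tested. Median fitted differences of the 5 lists lay between 0.37 and 0.42 (log2), close to the 0.40 of all genes tested. Of 15 core clock genes, 13 were called by the same fit. Dbp, a D-box activator, had 0.671, 28.6, 103, 8.43, 1.07, 73.0, 91.9 and 3.51 RPKM from CT23 to CT65 (adjusted p = 0.000216 in limma).

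Heat-induced chaperones, whose genes answer warmth while Cirbp and Rbm3 answer cold, gave 2 calls among 19 in limma, beside 1.84% of all genes tested. At an unadjusted p under 0.05 in limma they numbered 10 of 19, beside 15.0% of all genes tested. Both called genes were higher in the subjective night. Hsph1, a nucleotide exchange factor of Hsp70, had 11.9, 4.87, 11.7, 22.7, 12.3, 7.29, 9.38 and 19.2 RPKM from CT23 to CT65, with its 2 mid-night libraries highest. Its fitted peak was at 17.45 h (1.74 ± 0.24, log2, SE, adjusted p = 0.0114). Hsp90aa1, the inducible cytosolic Hsp90, had 26.5, 18.6, 23.4, 51.3, 46.5, 20.8, 19.0 and 69.4 RPKM, with a peak at 18.64 h (1.73 ± 0.32, adjusted p = 0.0412). CT41 and CT65 were also its highest libraries. Cirbp and Rbm3, at 9.15 and 10.70 h, had fitted peaks in the subjective day, and neither was called. A link between these peaks and those of the chaperones was not tested.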

How the data were processed

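Polyadenylated liver RNA was sequenced as 1 library of 3 pooled animals at each of 8 times. Alignment was to mm9, per the submitters' processing notes. The deposited transcript tables give a min and a max value per exon, intron and transcript, named only so per the file headers. Their scale, RPKM, was inferred from the values. Junction files were deposited with a raw count of reads for each junction, from RUM's high-quality set per the file headers. No source used here names the quantifying program, the RUM version, the read length or the strand setting. A gene and its antisense partner therefore cannot be told apart.

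The lower value came in whole steps of 1 read (tolerance 0.1 read) for 99.87 to 99.97% of transcripts, which gave the reads. Names came from RefSeq and Vega identifiers. Each gene was represented by the transcript of largest summed lower value, and genes needed 20 reads in 2 libraries. limma 3.58.1 (trend, robust) was fitted to log2(RPKM + 0.5) with a 24-h cosine and sine (5 residual degrees of freedom), which understates changes of low genes. The 12-h term set CT23, CT35, CT47 and CT59 against the rest (4 residual degrees of freedom). Adjustment was by Benjamini-Hochberg over every feature tested. edgeR 4.0.16 and DESeq2 1.42.0 on the recovered reads were alternatives. Introns overlapping annotated exons were left out. Junction shares were tested as log2 ratios within a site. The fit was tested on simulated data. Named with all values were Cirbp, Rbm3, the Tra2 pair, and the 4 most abundant SR and 4 most abundant hnRNP genes. So were the 4 highest introns and the 6 largest mean shares of minor junctions, with the Hnrnpa2b1 junction entered at each of its ends. The members and lists were chosen with earlier results of these data known. Sequences came from GENCODE M21 and RefSeq tables of GRCm38, whose coordinates were not mixed with mm9.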

Additional observations from a re-analysis of the deposited data

How the results depend on the processing

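In all 18 alternatives to the 24-h exon fit, 0 members were called, and 2 to 9 of them had an unadjusted p under 0.05. The same held in the alternatives tried for the 12-h term, the introns, the single introns and the junctions, with 0 members called in each. The number of all genes called for 24 h was 201, and it moved to 25 with no filter on low reads, to 652 with array weights, to 576 with DESeq2 on the recovered reads and to 354 with the transcript of the most reads, an alternative added after seeing the data. Leaving out 1 library at a time gave 85 (without CT59) to 257 (without CT35) calls. The cause was not tested. Depth limits the short transcripts of the rule, such as Cirbp with 22 reads in its poorest library, and the junctions, of which 30 of 51 were below the limits on reads or share. No paired analysis was possible because the labels give no replicate numbers and each time has 1 library.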
